A study of Mus musculus with 6 samples.

Results

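The cytosolic ribosomal protein genes were taken from a bulk RNA-seq table of mouse primary myoblasts by their names and biotype: protein-coding rows named Rpl or Rps with the numbers and letters of the ribosomal protein series, the stalk genes Rplp0, Rplp1 and Rplp2 and the gene Rpsa included, and the S6 kinases left out. This rule found 84 of the 54532 genes, 52 of the large subunit and 32 of the small subunit. It used no measured value. There were 6 libraries, 3 from cells labelled WT and 3 from cells labelled eIF5A-KO, all collected on day 2 of proliferation. The cells came from 3-week-old mice and were grown in DMEM with 10% fetal bovine serum and 10 ug/ml FGF. The eIF5A-KO mice carried Pax7 CreERT2/+ with eIF5A f/f, and tamoxifen was used to induce the deletion. The controls were littermates labelled WT, which the study describes as Pax7 CreERT2/+ in one place and as Pax7 +/+ with eIF5A f/f in another, so that Cre and the floxed allele cannot be told apart from the deletion as differences between the groups. Cre from Pax7 acts only in cells that express Pax7, the marker of muscle stem cells, and the cultures were not described as sorted. The comparison asked how the mRNA levels of myoblasts differ when eIF5A, a translation factor that carries the modified amino acid hypusine, is deleted, and here it was read for the genes that encode the ribosome's own proteins.

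A ribosome joins a small subunit, which decodes the mRNA, to a large subunit, which forms the peptide bonds, and both are built from rRNA and a set of ribosomal proteins. The mRNAs of these proteins are among the most abundant of growing cells. They typically begin with a C followed by a run of pyrimidines, the 5′ terminal oligopyrimidine (TOP) start, through which their translation follows mTOR and the protein LARP1, and the introns of many of these genes hold small nucleolar RNAs (snoRNAs). Among the 84 genes, 30 held 58 snoRNA genes. Most ribosomal protein genes also left processed pseudogenes in the genome, copies without introns whose reads are hard to tell from those of the parent gene.

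The first bases of some of the genes show the feature by which this class is best known. RefSeq starts on GRCm38.p6 were matched for 64 of the 84 genes, and the transcript's strand was searched within 5 bases either side of the annotated start for a C followed by C or T. A run of at least 6 such bases after the C stood there in 23 of the 64 genes, or 35.9%, against 7.64% of the 27025 genes in the table of starts, and a run of at least 4 in 29, or 45.3%, against 21.2%. A gene was counted if any of its annotated starts had the run. The length of the run was chosen after the sequences were seen, and an absent match says only that the letters are not near that annotated start. The windows below are each taken at a single annotated start. They hold the 10 bases before the start and the first 20 bases of the 5′ UTR, written 5′ to 3′ with the run in capitals. Rps6, Rpl15, Rpl27a and Rpl38 show the typical start, Rpl22l1 and Rps10 are genes whose values are described at length further on, and Rpsa and Rplp0 have no such run within 5 bases of the start.
Rps6, chr4:86857348-86857377, minus strand: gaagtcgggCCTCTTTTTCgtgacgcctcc
Rpl15, chr14:18270967-18270996, minus strand: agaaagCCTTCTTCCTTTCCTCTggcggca
Rpl27a, chr7:109519185-109519214, plus strand: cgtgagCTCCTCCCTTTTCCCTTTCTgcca
Rpl38, chr11:114668570-114668599, plus strand: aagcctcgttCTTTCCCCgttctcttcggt
Rpl22l1, chr3:28805498-28805527, plus strand: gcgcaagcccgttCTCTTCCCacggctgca
Rps10, chr17:27635225-27635254, minus strand: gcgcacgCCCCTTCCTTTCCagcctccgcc
Rpsa, chr9:120127756-120127785, plus strand: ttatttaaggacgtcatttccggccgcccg
Rplp0, chr5:115559457-115559486, plus strand: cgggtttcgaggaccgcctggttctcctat

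Total gene counts ranged from 16281216 to 17734551 per library, and 14679 genes, 83 of the 84 among them, had enough counts to be tested. The gene that was not tested was Rpl10l, a copy of Rpl10 without introns, which had 0 counts in every library. Nothing in the labels says that the libraries came from separate animals, so that p-values measure the spread between these libraries only. Eif5a, the targeted gene, stood at 664, 411 and 517 FPKM in WT replicates 1 to 3 and at 569, 610.4 and 444 in eIF5A-KO replicates 1 to 3, where FPKM is fragments per kilobase of gene length and total fragments, as the authors scaled it. Sets of 3 values are always given in the order of replicates 1 to 3. These values overlap, with a log2 fold change of 0.02 (SE 0.23, edgeR adjusted p = 0.993), and the level of the floxed part alone was not measured, so the libraries are called here by their labels. Myoblast markers were present in every library, with a summed level of 5 genes from 204 to 439.9 FPKM in WT and from 167 to 327 in eIF5A-KO. The cultures also held the markers of other cells, with summed levels from 253 to 406 FPKM for 6 fibroblast genes and from 154 to 433 for 5 endothelial genes over the 6 libraries, and from 36.4 to 106 for 5 macrophage genes, of which 2 were under 1 FPKM in every library. The sum of 7 mural cell genes was from 90.1 to 140.2 FPKM in WT and from 153 to 178 in eIF5A-KO, higher in each eIF5A-KO library than in any WT library. That did not hold for each gene of the list: the groups overlapped for Rgs5, Abcc9, Notch3 and Acta2, and not for the others. The part of these other cells in the values below was not tested. In bulk RNA, fewer cells of a type and less RNA per cell cannot be told apart.

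Ribosomal protein mRNAs were abundant and unequal. Their mean level over the 6 libraries had a median of 411 FPKM over the 84 genes, 74 of them were at 100 FPKM or more, and 13 at 1000 or more. Of all genes in the table, 1.01% reached 100 FPKM, and 37 of the 100 most abundant genes were ribosomal protein genes. Rplp1, which encodes one of the acidic proteins of the stalk that recruits translation factors, led at 4855, 2130.2 and 3066 FPKM in WT and 3419, 3182 and 1908 in eIF5A-KO. Rpl41, which encodes the smallest ribosomal protein, followed at 3813, 1666 and 2499 in WT and 3354, 3494 and 1833 in eIF5A-KO. Next came Rplp0, the base of the stalk, with 2669.7, 1728 and 2086 in WT and 2529.7, 2998 and 1806 in eIF5A-KO. The ranges of these genes overlap one another, so that their order is not set beyond the spread of the libraries. Rps15 stood at 2448, 1412 and 1941 in WT and 2069.5, 2318 and 1389 in eIF5A-KO, and Rps2 at 1882, 1245 and 1544 in WT and 1469, 1813 and 1401 in eIF5A-KO.

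The members of the stalk were not at like levels: Rplp2, the partner of Rplp1, was at 387, 203 and 289 FPKM in WT and 340.5, 356 and 247 in eIF5A-KO, below Rplp1 in every library. The FPKM values rest on the gene lengths of the table, which for 80 of the 84 genes equal their merged exons in GENCODE M21, though not for Rpl17, at 775 bases against 1327, and the length of Rplp2 is 2072 bases against 499 for Rplp1. Rps6, the target of the S6 kinases, was at 1275, 779 and 1057 in WT and 1006, 1108 and 945 in eIF5A-KO. For Rpl5, which binds the 5S rRNA together with Rpl11, the levels were 508, 265 and 421 in WT and 332, 341 and 359 in eIF5A-KO, and for Rpl11 414, 192 and 254 in WT and 225, 253 and 185 in eIF5A-KO. Both proteins also hold Mdm2 when ribosome assembly is disturbed, and WT replicate 1 was the highest library for both genes. Rpl3, at the peptidyl transferase region, was at 686, 427 and 511 in WT and 488, 551 and 416 in eIF5A-KO, and Rpl10, which joins the large subunit late in its assembly, at 683, 432 and 563 in WT and 598, 614 and 457 in eIF5A-KO. Rps19, a small subunit protein needed for its assembly and mutated in Diamond-Blackfan anaemia, was at 248, 126 and 181 in WT and 191, 205 and 134 in eIF5A-KO. In each of these genes the groups overlap.

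At the low end, 7 of the 84 genes had a mean under 20 FPKM and 8 under 60, and they were of different kinds. Rpl3l, the striated muscle form of Rpl3, was the lowest of those tested, with 1.47, 1.92 and 0.927 FPKM in WT and 0.849, 0.932 and 0.825 in eIF5A-KO, from 23 to 60 counts per library. Rpl39l, the form of Rpl39 known from the testis, was at 12.5, 2.72 and 6.77 in WT and 4.38, 6.16 and 3.40 in eIF5A-KO. Rpl36al, a second gene for the Rpl36a protein, was at 1.93, 1.12 and 1.52 in WT and 0.627, 0.827 and 1.75 in eIF5A-KO. Beside these forms, Rpl10l and Rpl22l1, the low genes were the single genes of 3 core proteins of the ribosome. Rpl24 was listed at 2.78, 1.48 and 1.99 in WT and 1.24, 1.94 and 2.25 in eIF5A-KO, from 21 to 45 counts per library. Rps10 was listed at 4.38, 2.32 and 2.36 in WT and 3.31, 2.42 and 2.17 in eIF5A-KO, from 89 to 159 counts. Rpl13a, with 57.0, 26.6 and 41.2 in WT and 39.9, 39.0 and 31.7 in eIF5A-KO, was also far below the median of the class.

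Low levels went with overlap in the annotation. Of the 84 genes, 5 shared exon bases with another gene on the same strand. In 4 of them, Rpl13a, Rpl36al, Rps10 and Rpl24, the shared part held 97.5%, 94.4%, 91.6% and 82.9% of the coding sequence, and all 4 were among the 8 genes under 60 FPKM. The overlapping genes, Gm45713, Gm49383, RPS10-NUDT3 and Gm28037, had 0 counts in all libraries. The fifth gene, Rpl19, shared no coding base and stood at 1583, 897 and 1211 FPKM in WT and 1450.4, 1608 and 1109 in eIF5A-KO. The counting rule for reads on shared exons is not given in the sources used here, and the part of the overlap in the levels was not tested.

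Most of the genes also have processed copies, to which reads may be assigned. At 90% identity or more over at least 50% of the coding sequence, 80 of the 84 genes had an annotated copy, with a median of 8.5 copies and up to 79, and 71 had one at 97% or more. Rpl3l, Rpl8 and Rpl39l had none. In most genes the parent held nearly all the counts, but in 4 genes the copies held more. Rps10 had 664 counts over the 6 libraries, while its pseudogene Rps10-ps2, 98.99% identical, had 24036, so that 2.57% of the counts of gene and copies lay on the gene. That pseudogene was listed at 630.2, 344 and 429.5 FPKM in WT and 499, 598 and 355 in eIF5A-KO, beside the median of 411 for the class. Rpl24 held 21.6% of the counts of gene and copies, Rpl17 39.8% and Rpl21 47.8%. The levels of these genes are uncertain for this reason.

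**Figure D1:**
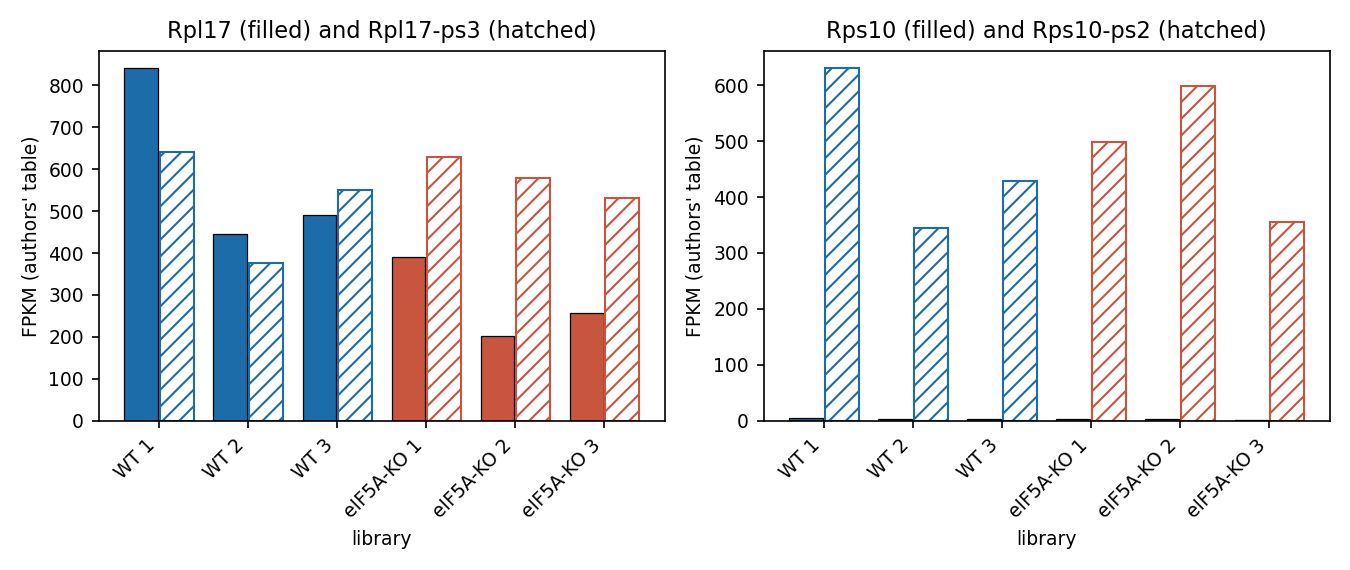
FPKM in each of the 6 libraries of Rpl17 and Rps10 (filled bars, blue for WT and red for eIF5A-KO) beside the most counted pseudogene copy of each (hatched bars). Rpl17 is lower in the 3 eIF5A-KO libraries while Rpl17-ps3 is not, and Rps10 stays between 2.17 and 4.38 FPKM beside a copy between 344 and 630.2.

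As a class, the genes differed together from library to library more than between the groups. They held 9.97%, 5.97% and 8.16% of the gene counts in WT replicates 1 to 3 and 7.60%, 8.06% and 6.34% in eIF5A-KO replicates 1 to 3. The highest and the lowest share were both in WT libraries. The mean was 8.03% ± 2.00 (SD, n = 3) in WT and 7.33% ± 0.891 (SD, n = 3) in eIF5A-KO, a difference of -0.70 percentage points that is smaller than the spread among the WT libraries. Scaled between libraries and taken as log2 CPM, counts scaled to a common library total, minus each gene's own mean, the median over the 83 tested genes was 0.54 in WT replicate 1, -0.41 in WT replicate 2 and 0.07 in WT replicate 3, and 0.03, 0.09 and -0.33 in eIF5A-KO replicates 1 to 3. WT replicate 1 was the highest library for 77 of the 83 genes, whereas it was the highest for 27.4% of all tested genes. WT replicate 2 was the lowest library for 51 of the 83 genes, against 22.2% of all tested genes, and eIF5A-KO replicate 3 for 28, against 14.6%.

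**Figure D2:**
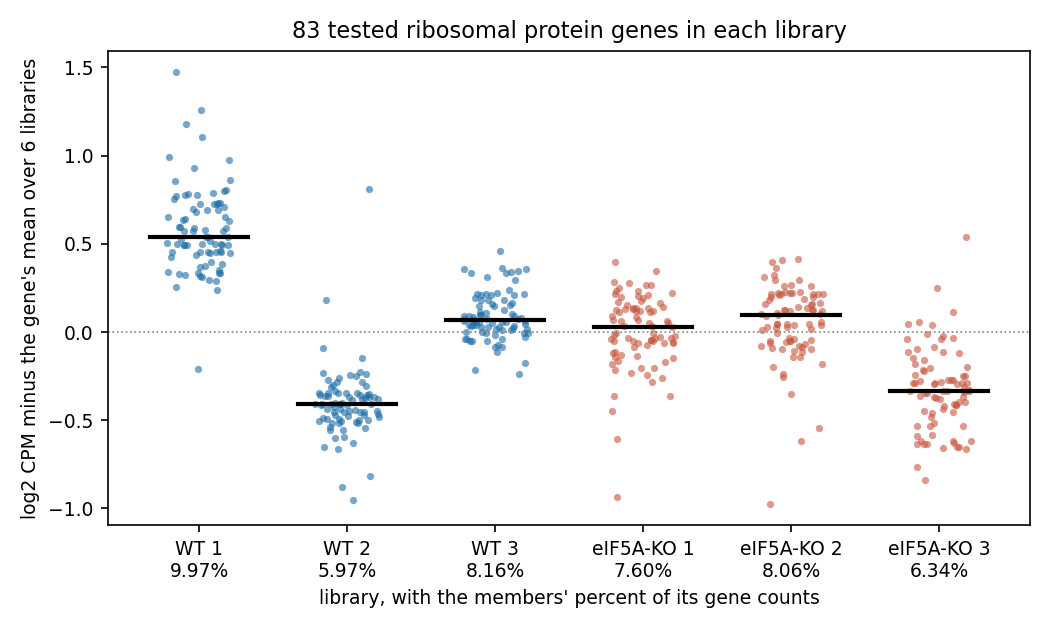
Each point is one of the 83 tested ribosomal protein genes in one library, as log2 CPM minus the gene's mean over the 6 libraries, with black bars at the medians and the share of gene counts under each library's name. WT replicate 1 has the highest median, 0.54, and WT replicate 2 the lowest, -0.41, with the eIF5A-KO libraries between them.

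The subunits kept step. The large subunit's median was 0.54, -0.41 and 0.08 in the WT libraries and the small subunit's 0.55, -0.44 and 0.07, and in eIF5A-KO they were -0.01, 0.05 and -0.33 for the large and 0.03, 0.11 and -0.34 for the small subunit. Counts on the small subunit's genes were 0.777 ± 0.0138 of those on the large subunit's in WT and 0.777 ± 0.0206 in eIF5A-KO (SD, n = 3 each). The spread of a single gene between libraries of a group, as the median SD on the log2 scale, was 0.49 in WT and 0.25 in eIF5A-KO for the ribosomal protein genes, against 0.31 and 0.22 over all tested genes. Other values differed with the same libraries. Mitochondrial transcripts took 5.75% of the counts of WT replicate 1 and from 2.11% to 3.50% of the others. Of the 5 marker lists, the summed level of the fibroblast genes was the highest in WT replicate 1, at 406 FPKM, of which Dcn made up 260.0, while Col1a1 and Col1a2 of the same list were at their lowest there, at 16.5 and 27.3. The endothelial sum was lowest in that library, at 154, as was the mural sum, at 90.1. The endothelial sum was highest in eIF5A-KO replicate 3, at 433, where the ribosomal protein genes were low, while the myoblast sum was highest in WT replicate 2, at 439.9. None of the genes of these lists was listed at 0 in all libraries, and the part of these values in the ribosomal protein levels was not tested.

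Between the groups, no ribosomal protein gene passed the test after adjustment. In edgeR's quasi-likelihood test with Benjamini-Hochberg adjustment, 0 of the 83 genes had an adjusted p under 0.05, as did 0.0204% of all tested genes. At an unadjusted p under 0.05, 2 of the 83 (2.41%) were lower in eIF5A-KO, against 4.02% of all tested genes, and 0 were higher, against 2.74%. The groups did not overlap in the lower direction for 1 gene, Rpl17, against 6.83% of all tested genes, and in the higher direction for 0, against 5.68%. Each of these shares was below that of all tested genes in the same test. DESeq2 counted 3 lower (3.61%, against 2.45% of all genes it tested), limma-voom 2 (2.41% against 3.81%) and limma on log2(FPKM + 1) 3 (3.61% against 3.7%), each with 0 members after adjustment and 0 higher. Of all genes, 0.312% passed after adjustment in DESeq2 and 0% in both limma fits, and 1.62%, 2.74% and 2.98% were higher in DESeq2, limma-voom and limma on log2(FPKM + 1). Without a filter on low counts, edgeR counted 10 of the 83 as lower, against 3.81% of all genes, and gave an adjusted p under 0.05 for 3 (3.61%), Rpl17, Rpl22l1 and Rps27a, against 0.924%.

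The direction was nonetheless shared. A log2 fold change below 0 was estimated for 70 of the 83 genes (84.3%), against 51.7% of all tested genes, with a median of -0.19 against -0.01, and the medians of the large and the small subunit were both -0.19. Without WT replicate 1 the median became 0.10 and 25 of the 83 genes were below 0. It became -0.39 without WT replicate 2, with 81 genes below 0 and 25 of them (30.1% of the 83) lower at an unadjusted p under 0.05, against 4.84% of all genes tested without that library and with 0 after adjustment, and -0.07 without eIF5A-KO replicate 3, with 51 below 0. The direction of the class thus rested on WT replicate 1. No test was made over the class, since its genes share libraries and move together.

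**Figure D3:**
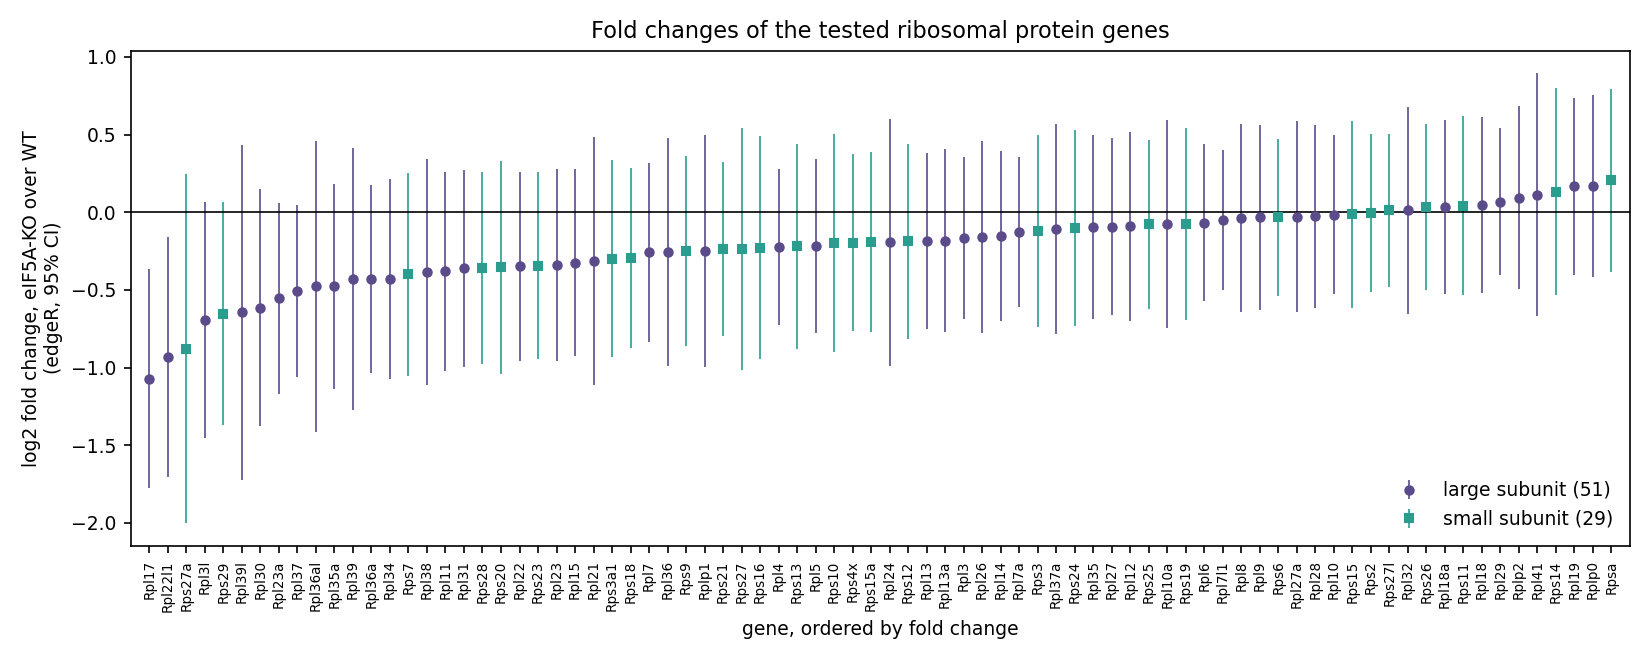
Log2 fold changes of 80 of the 83 tested genes, eIF5A-KO over WT, in order, with 95% confidence intervals from edgeR, circles for the 51 large subunit and squares for 29 small subunit genes. The intervals of Rpl17 and Rpl22l1 alone lie wholly below 0, and those of the others include 0.

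Rpl17 had the lowest fold change. It encodes a protein at the exit of the peptide tunnel, lies on chromosome 18 and has 7 exons. It stood at 840.3, 446 and 489.8 FPKM in WT and at 391, 201 and 257 in eIF5A-KO, so that each eIF5A-KO library was below each WT library. The log2 fold change was -1.07 (SE 0.31, 95% CI -1.78 to -0.37, edgeR unadjusted p = 0.00718, adjusted p = 0.484), and over the alternatives the adjusted p ran from 0.000772 to 0.948. It was the only ribosomal protein gene past the study's criterion of a change over 2-fold with an unadjusted p under 0.05, 1 of 83 (1.20%) against 1.69% of all tested genes. Without WT replicate 1 its log2 fold change was -0.72, and without eIF5A-KO replicate 2 it was -0.87, both under 2-fold. The main copy of Rpl17 did not share the lower level in eIF5A-KO. Rpl17-ps3, 99.64% identical over the aligned coding sequence, stood at 640.1, 375 and 551 FPKM in WT and 628, 579 and 530.5 in eIF5A-KO. In eIF5A-KO replicate 2 the gene had its fewest counts, 2647, and its copies together their most, 12032. Rpl17-ps3 alone was not at its most there, with 5757, 5469 and 5225 counts in eIF5A-KO. When the counts of all copies were added to the gene, an alternative chosen after the data were seen, the log2 fold change became -0.22 (edgeR unadjusted p = 0.384), and the lower value of Rpl17 could not be told apart from a different sharing of reads with its copies.

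Rpl22l1 was the other gene with an unadjusted p under 0.05. It encodes a paralog of Rpl22 that can take its place in the ribosome, has 4 exons and lies at chr3:28805436-28807424 in mm10. Its level was 31.3, 11.7 and 17.7 FPKM in WT and 10.2, 13.5 and 8.23 in eIF5A-KO, from 290 to 979 counts per library, and the lowest WT value lay below the highest eIF5A-KO value. The log2 fold change was -0.93 (SE 0.34, 95% CI -1.70 to -0.16, edgeR unadjusted p = 0.0233, adjusted p = 0.612), with adjusted p from 0.0101 to 1.00 over the alternatives. Copies made little difference, since 97.7% of the counts of gene and copies lay on the gene and the value with copies added was -0.93. Without WT replicate 1 it was -0.46 (unadjusted p = 0.0922), and without eIF5A-KO replicate 1 or 3 the unadjusted p was 0.0667 or 0.0886.

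Next in order was Rps27a, which encodes a small subunit protein made as a fusion with ubiquitin. The WT libraries were far apart, at 628, 129 and 287 FPKM in WT and 277, 149 and 146 in eIF5A-KO, and WT replicate 2 was the lowest of the 6 libraries. Its log2 fold change was -0.88 (SE 0.50, edgeR unadjusted p = 0.111, adjusted p = 0.824), and without WT replicate 1 it was -0.13. The adjusted p ran from 0.0205 without a filter to 1.00 over the alternatives.

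At the other end, the highest fold changes were small beside their errors. Rpsa, a small subunit protein also known as a laminin receptor, stood at 1245, 698 and 1073 FPKM in WT and 1230.5, 1325 and 943 in eIF5A-KO, with a log2 fold change of 0.21 (SE 0.26, 95% CI -0.38 to 0.80, edgeR adjusted p = 0.947). For Rplp0, whose values are given with the levels, it was 0.17 (SE 0.26, 95% CI -0.42 to 0.76, edgeR adjusted p = 0.953). Rpl19, a large subunit protein, had 0.17 (SE 0.25, 95% CI -0.40 to 0.74, edgeR adjusted p = 0.952). Single libraries set the size of these values. Without WT replicate 1 they were 0.40 for Rpsa, 0.36 for Rplp0 and 0.40 for Rpl19, and without WT replicate 2 they were 0.0018, 0.033 and -0.015. Without eIF5A-KO replicate 2 they were 0.11, 0.0068 and 0.059, and without eIF5A-KO replicate 3 they were 0.34, 0.35 and 0.31. In all 3 genes the groups overlap, and a decrease or an increase within these intervals was not detectable with 3 libraries a group.

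Since the genes varied together between libraries, their composition was also read against their own middle. For each library the median deviation of the 83 genes was subtracted from the log2 CPM of each gene, a choice made after the data were seen, by which library scaling cancels. The median SD within a group then fell from 0.49 to 0.11 in WT and from 0.25 to 0.15 in eIF5A-KO. Relative to the median gene of the class, the groups did not overlap in the lower direction for 10 of the 83 genes, against 1.99% of all tested genes, and in the higher direction for 9, against 5.59%. The subtraction removes variation that the ribosomal protein genes share and most other genes do not, so the percentages over all genes are not like for like and the counts are a description. With copies added the counts were 9 and 11, against 1.94% and 5.38% of all tested genes, and 9 genes in each direction were the same. Against the summed counts of the class in place of its median they were 13 lower, against 2.6%, and 4 higher, against 3.87%.

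Apart from Rpl17, whose relative difference of -0.93 shrank to -0.05 with copies added, the lower genes included Rpl22l1, Rps29, Rpl23a, Rpl37, Rpl35a, Rpl36a, Rpl34 and Rpl11. Rpl22l1 lay at 0.64, 0.16 and 0.27 in WT and -0.48, -0.15 and -0.43 in eIF5A-KO on this relative log2 scale. Rps29, a small zinc-binding protein of the small subunit, lay at 0.39, -0.02 and 0.29 in WT and -0.05, -0.29 and -0.30 in eIF5A-KO. The values of Rpl23a, at the tunnel exit, were 0.32, 0.26 and -0.03 in WT and -0.17, -0.18 and -0.18 in eIF5A-KO. In these 3 genes the groups were apart, for Rps29 by little: WT replicate 2 lay next to eIF5A-KO replicate 1. Rpl37 was at 0.19, 0.15 and 0.15 in WT, close together, and at -0.31, -0.21 and 0.05 in eIF5A-KO. The differences of the 9 genes without Rpl17 ran from -0.71 to -0.18. Leaving out 1 library moved some of the lower differences by over 1.5 times: without WT replicate 1, Rpl35a went from -0.27 to -0.17 and Rpl11 from -0.18 to -0.11, and without eIF5A-KO replicate 2, Rpl17 went from -0.93 to -0.61.

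The higher genes included Rpsa, Rpl19, Rps14, Rplp2, Rps26, Rpl27a, Rpl9 and Rpl12, with relative differences from 0.37 down to 0.10. Rpsa lay at -0.30, -0.19 and -0.05 in WT and at 0.18, 0.22 and 0.15 in eIF5A-KO. Rpl19 was at -0.22, -0.10 and -0.15 in WT and 0.15, 0.23 and 0.12 in eIF5A-KO, and the stalk gene Rplp2 at -0.14, -0.13 and -0.11 in WT and 0.17, 0.17 and 0.06 in eIF5A-KO. In these genes every eIF5A-KO library was above every WT library, though each fold change on the scale of all genes had an interval that included 0. When each library was left out in turn, the difference of Rpsa stayed between 0.32 and 0.42, that of Rpl19 between 0.30 and 0.36 and that of Rplp2 between 0.24 and 0.29. These genes were picked because their groups did not overlap on this scale, so leaving out a single library could not turn their direction.

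**Figure D4:**
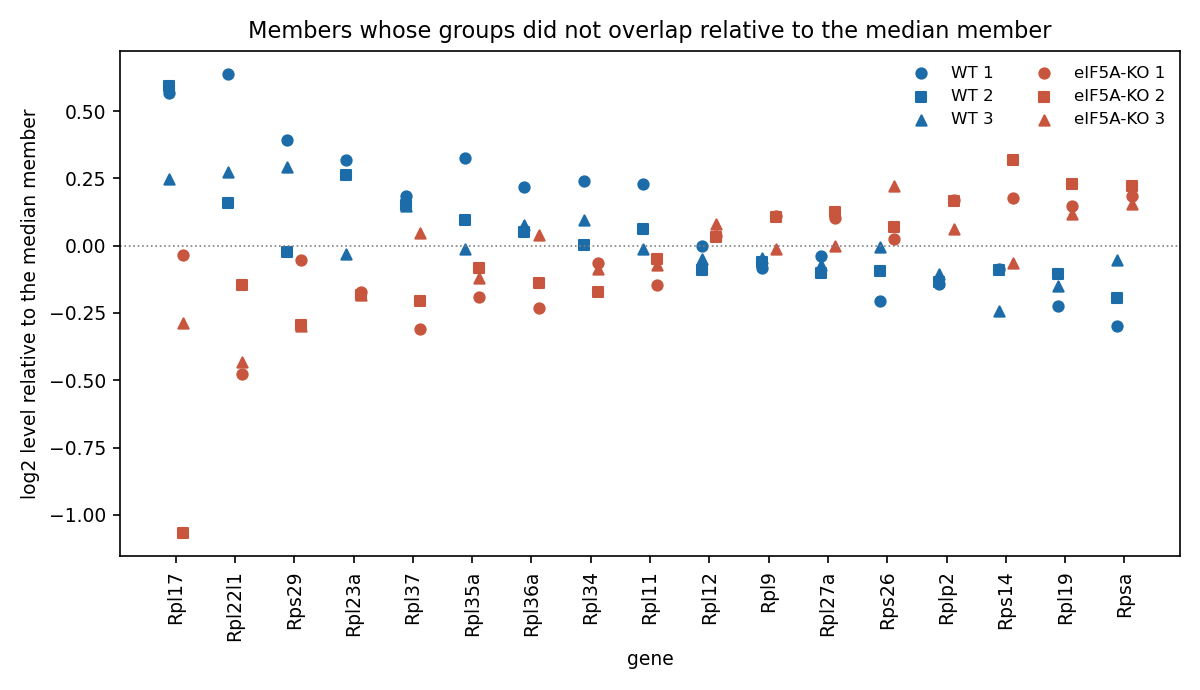
Log2 level relative to the median ribosomal protein gene of the same library, for 17 of the 19 genes whose groups did not overlap on this scale, blue for WT and red for eIF5A-KO, with a symbol for each replicate number. The gap between the nearest WT and eIF5A-KO libraries is widest for Rpl17 and for Rpl22l1, and narrower in the other genes.

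Several ribosomal proteins are encoded by a pair of paralogs, and the share of the second gene in the summed FPKM of its pair was compared between the groups for 8 pairs with an exact two-sided permutation test, whose smallest p with 3 libraries a group is 0.1. Rpl22l1 held 12.4, 10.4 and 11% of its pair with Rpl22 in WT and 8.21, 9.96 and 5.9% in eIF5A-KO, lower in every eIF5A-KO library than in any WT library, with a mean difference of -3.25 percentage points (exact p = 0.1, adjusted over the 8 pairs 0.4). Rpl22 itself, at 221, 100.3 and 143 FPKM in WT and 114, 122 and 131 in eIF5A-KO, had a log2 fold change of -0.35 (SE 0.27, edgeR adjusted p = 0.901). Rps4l, annotated as a transcribed processed pseudogene and so no member of the class, held 4.6, 5.66 and 5.3% of its pair with the X-linked Rps4x in WT and 6.94, 5.98 and 6.98% in eIF5A-KO, a difference of 1.45 percentage points (exact p = 0.1, adjusted 0.4). These groups did not overlap either. Rps4l was not among the copies found at 90% identity or more over at least 50% of the coding sequence. Sharing of reads within this pair was not tested.

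Other pairs overlapped between the groups. Rps27l, a paralog of Rps27 that is a target of p53, held 43.2, 47.7 and 45.9% of its pair in WT and 42.1, 47.3 and 63.2% in eIF5A-KO (exact p = 0.7, adjusted 0.933). Its share was highest in eIF5A-KO replicate 3, where Rps27 was at 244 FPKM and Rps27l at 419. Rpl7l1, a relative of Rpl7 that acts in ribosome assembly, held 10.5, 12.7 and 10.7% in WT and 13.1, 12.6 and 12% in eIF5A-KO (exact p = 0.3, adjusted 0.6). Rpl39l held 2.64, 1.73 and 2.66% of its pair with Rpl39 in WT and 1.67, 2.52 and 2.25% in eIF5A-KO (exact p = 0.5, adjusted 0.8). Rpl3l took 0.214, 0.446 and 0.181% of its pair with Rpl3 in WT and 0.174, 0.169 and 0.198% in eIF5A-KO (exact p = 0.2, adjusted 0.533), and its log2 fold change was -0.69 (SE 0.34, 95% CI -1.45 to 0.06, edgeR adjusted p = 0.794) on 23 to 60 counts per library. Without WT replicate 2, where it had the 60 counts, the log2 fold change was -0.44 and the difference in share went from -0.101 to -0.0176 percentage points. Rpl36al held under 1% of its pair with Rpl36a in every library (exact p = 1), and Rpl10l was listed at 0 in all 6 libraries beside Rpl10.

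Genes that work with the ribosomal proteins were read from lists chosen with earlier results of these data known. Fau, which encodes a ribosomal protein fused to a ubiquitin-like protein, and Rack1, a scaffold on the small subunit, fall outside the name rule. Fau, at 1029, 531 and 645 FPKM in WT and 716, 772 and 488 in eIF5A-KO, and Rack1, at 477, 274 and 324 in WT and 339, 419 and 273 in eIF5A-KO, were both highest in WT replicate 1. Their log2 fold changes were -0.17 (SE 0.28, edgeR adjusted p = 0.961) for Fau and -0.07 (SE 0.26, edgeR adjusted p = 0.983) for Rack1. Of 42 genes for ribosome biogenesis, such as the nucleolar proteins nucleolin and fibrillarin and subunits of RNA polymerase I, 26 were below 0 and 16 above, with a median of -0.05 and 0 at an unadjusted p under 0.05 in either direction. Their library medians ran from -0.22 in WT replicate 2 to 0.20 in WT replicate 1, a narrower range than that of the ribosomal proteins. The 5 carriers, which escort newly made ribosomal proteins, had a median of 0.02 and 0 such genes.

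With all 6 libraries, other mRNAs known for a TOP start did not share the direction between groups. Of 12 translation factors and related genes, 6 were below 0 and 6 above, with a median of 0.00044 and 0 at an unadjusted p under 0.05. Single libraries moved this: 9 of the 12 were below 0 without WT replicate 2 or without eIF5A-KO replicate 2, and 2 without WT replicate 1. Eef1a1, the most abundant elongation factor, stood at 3388, 2695 and 2901 FPKM in WT and 2531, 2906 and 2751 in eIF5A-KO. Their library medians ran from 0.28 in WT replicate 1 to -0.29 in WT replicate 2, the same end libraries as those of the ribosomal proteins. Transcripts that host snoRNAs and begin in the same way shared one direction with all 6 libraries. Of these, 6 of 6 had a log2 fold change below 0, with a median of -0.40, and 2 had an unadjusted p under 0.05 against 4.02% of all tested genes in that direction. Snhg8 was at 48.7, 23.0 and 34.3 FPKM in WT and 22.4, 22.1 and 21.4 in eIF5A-KO, each eIF5A-KO library below each WT library, with a log2 fold change of -0.69 (SE 0.26, edgeR unadjusted p = 0.0246, adjusted p = 0.628). Snhg5 was at 36.7, 20.2 and 29.3 in WT and 20.1, 18.2 and 22.1 in eIF5A-KO, with -0.52 (SE 0.23, edgeR unadjusted p = 0.0489, adjusted p = 0.736). None of the 6 passed after adjustment. The list's library medians were 0.53, -0.26 and 0.30 in WT and -0.17, -0.35 and -0.04 in eIF5A-KO, highest in WT replicate 1 like those of the ribosomal proteins. Without that library 6 of 6 stayed below 0, with a median of -0.22 and 0 at an unadjusted p under 0.05, and without WT replicate 2 the median was -0.59 with 5 such genes, whereas leaving out any eIF5A-KO library left 0. Without WT replicate 3 or without eIF5A-KO replicate 2, 5 of the 6 were below 0. For the other lists, leaving out WT replicate 1 moved the median to 0.05 for ribosome biogenesis, 0.14 for the carriers, 0.13 for the TOP mRNAs and -0.11 for the regulators described next. Leaving out WT replicate 2 moved it to -0.16, -0.09, -0.14 and 0.27 in the same order.

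Most genes on the list of regulators of ribosome production ran against the ribosomal proteins in WT replicates 1 and 2. The list was not split into genes that promote and genes that restrain ribosome production, so its median has no single meaning. The 12 genes included Mtor, Larp1, Myc, the S6 kinase genes, Tsc1, Tsc2 and Maf1. Their median deviation was -0.47 in WT replicate 1 and 0.35 in WT replicate 2, where the ribosomal proteins had 0.54 and -0.41. In the other 4 libraries it lay between 0.03 and 0.10, close to that of the ribosomal proteins in WT replicate 3 and eIF5A-KO replicates 1 and 2. In WT replicate 1, 9 of the 12 were at their lowest of the 6 libraries, against 27.9% of all tested genes. Below their own mean there and above it in WT replicate 2 were 8 genes. Of the 12, 9 were lower in WT replicate 1 than in WT replicate 2. The other 3 were higher there: the S6 kinase gene Rps6kb1, with deviations of 0.16 and -0.09, Eif4ebp1, with 0.27 and -0.29, and Maf1, with 0.05 and -0.10. Larp1, which binds TOP mRNAs, was at 12.8, 33.4 and 28.9 FPKM in WT and 25.9, 26.3 and 28.6 in eIF5A-KO, lowest in WT replicate 1. Myc was at 61.1, 101 and 106 in WT and 121, 106 and 116 in eIF5A-KO, with a log2 fold change of 0.35 (SE 0.22, edgeR adjusted p = 0.863). Between the groups, 3 of the 12 were below 0 and 9 above, with a median of 0.08 and 0 at an unadjusted p under 0.05. Their genes are long, with a median length of 6306 bases in the table against 1739 for the ribosomal protein genes and 4128 for all tested genes. When a trend of fold change with gene length was taken out, the median of the ribosomal proteins was -0.21. That of the regulators was then 0.04, with 4 of the 12 below 0. The part of length in the library pattern was not tested.

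**Figure D5:**
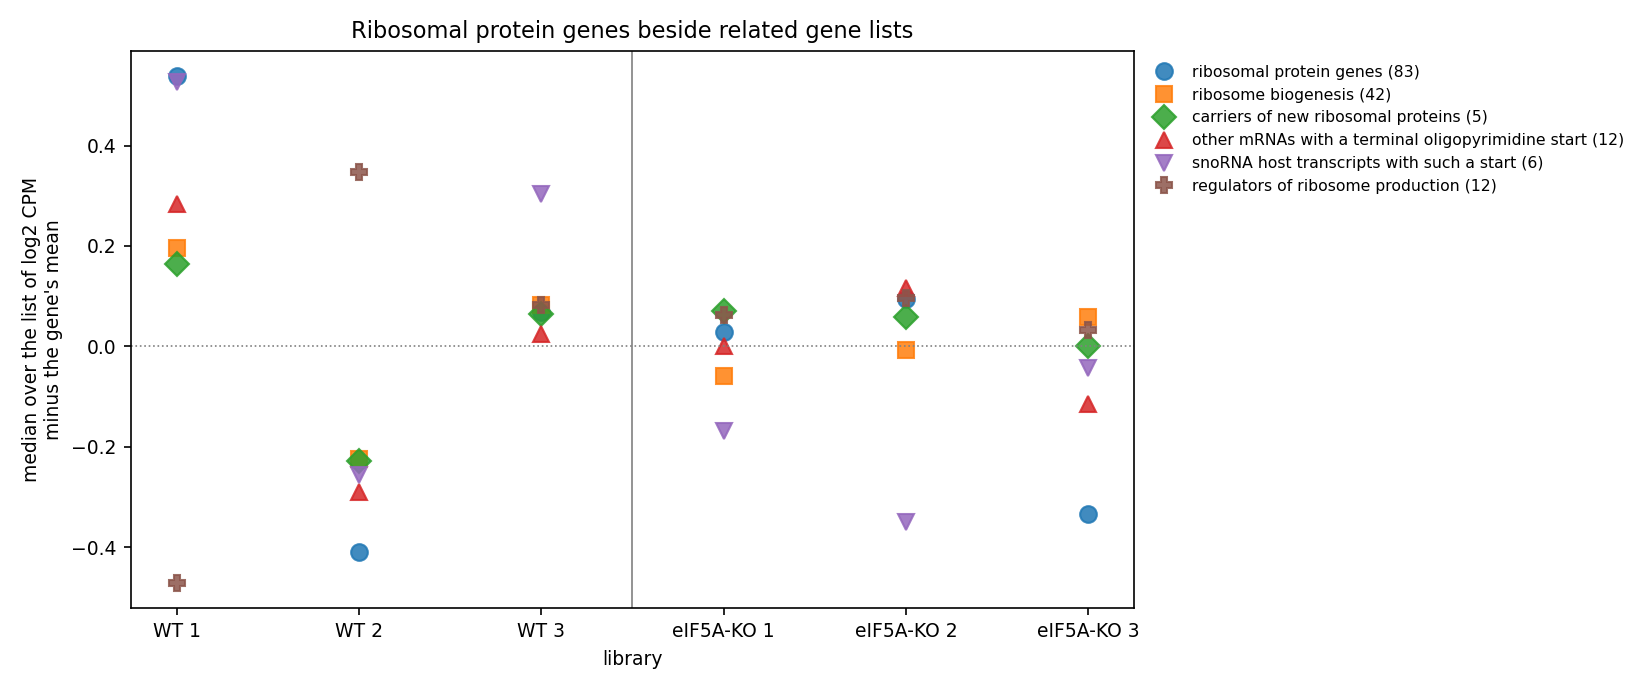
For each library, the median over each gene list of log2 CPM minus the gene's mean over the 6 libraries, with the number of tested genes in brackets. The ribosomal protein genes span 0.54 in WT replicate 1 to -0.41 in WT replicate 2, and the median of the regulators lies opposite to theirs in these libraries.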

How the data were processed

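Bulk RNA-seq of mouse primary myoblasts was read in 6 libraries, 3 WT and 3 eIF5A-KO. RNA was isolated by the authors with TRIzol and made into NEBNext Ultra libraries, and HISAT placed the reads on mm10. They deposited raw read counts per gene, with gene lengths and coordinates, and a table of FPKM, which equals those counts divided by gene length and by a denominator that scales the libraries. The versions, the annotation and the rules for reads with several matches are not given in the sources used here. The methods name DEGSeq2 for the read coverage of each gene.

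From the counts, edgeR 4.0.16 in R 4.3.3 was run with filterByExpr, TMM factors and the quasi-likelihood test with a prior count of 2, with Benjamini-Hochberg adjustment over 14679 genes and a threshold of 0.05. Intervals are at 95%. No covariate was used. The biological coefficient of variation was 0.239, and libraries of a group differed by more than counting noise (chi-square per degree of freedom of 20.1 or more). On simulated counts for eIF5A-KO against WT with 14428 genes tested, edgeR found 94 of 103 genes with a simulated log2 change of 2, 32 of 93 with a change of 1, and 6 without a change. Alternatives used DESeq2 1.42.0, limma 3.58.1, other scalings and filters, each library left out, and copies found with blastn 2.17.0 added to the gene they match best. Gene models were those of GENCODE M21, where 82 of the 84 genes have the same start and end.

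The genes and lists were chosen with earlier results of these data known. Values per library are given for genes with an unadjusted p under 0.05, the 3 highest and 3 lowest fold changes, the 5 highest and 5 lowest levels among tested genes, paralog pairs and textbook roles. Of the related lists, the genes given as examples were chosen after their values were seen. Some genes of the class and of the related lists are not reported here by name and were left out of the plots that name genes or that list, though they stay in all counts.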

Additional observations from a re-analysis of the deposited data

How the results depend on the processing

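The median log2 fold change of the ribosomal protein genes stayed below 0 under other scalings, filters and tools, from -0.21 to -0.14. The libraries set its direction: leaving out each replicate in turn moved it between -0.39 and 0.097, above 0 without WT replicate 1. In the same way the difference in the share of gene counts ranged from -1.73 to 0.268 percentage points, above 0 without WT replicate 1, and the count of genes lower at an unadjusted p under 0.05 from 1 to 25. The 25 fell without WT replicate 2, where 4.84% of all genes were called. That count, 2 as reported (4.02% of all genes), was 5 with library size alone (4.5%), 10 without a filter on low counts (3.81%) and 1 with copies added (4.01%, chosen after the data were seen), and without the filter 3 genes had an adjusted p under 0.05 (0.924% of all genes). The cause was not tested. With a replicate block it was 4 (3.49% of all genes) and the median -0.16. The replicate numbers are not known to mark shared animals: deviations of same-numbered libraries correlated at 0.103, -0.221 and 0.113, and 2 of the 6 libraries correlated best with their own number. Both limma fits on FPKM put Rpl10 at 0.0049, and library size alone put Rps27l at -0.0017. Leaving out each replicate turned these log2 fold changes at one end of their range: Rpl3 from -0.31 to 0.051, Rpl7 from -0.47 to 0.011, Rpl7l1 from -0.20 to 0.153, Rpl10 from -0.17 to 0.164, Rpl19 from -0.015 to 0.40, Rpl22 from -0.58 to 0.0098, Rpl39 from -0.73 to 0.097, Rps4x from -0.39 to 0.057, Rps27 from -0.51 to 0.049 and Rps27l from -0.18 to 0.21. Differences in paralog share ranged from -0.168 to 0.0545 percentage points for Rpl36al, from -0.500 to 0.0417 for Rpl39l and from -0.928 to 9.62 for Rps27l. With 3 libraries a group, intervals of single genes were wide, and genes under 100 counts add counting error.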
